A study of Mus musculus with 2 samples.

Results

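The genes described here are 31 DNA replication and S-phase genes, chosen by name from the 32285 genes counted in a single-cell RNA-seq study of mouse mammary tumors. The study asked which genes accompany the gain of basal traits by luminal tumor cells. Its cells came from 2 Krt8-CreERT/Rosa26-mTmG/MMTV-PyMT mice of 1 condition, so the mouse was the replicate and there was no untreated group. MMTV-PyMT mice express the polyoma middle T oncogene in the mammary epithelium, the Krt8-CreERT recombinase acts in luminal cells after tamoxifen, and the Rosa26-mTmG reporter then marks those cells and their descendants with GFP. Both mice received 150 mg/kg tamoxifen in corn oil on 3 days at week 5 and 3 days at week 6, and tumors were taken at a volume of 1.5 cm3. GFP-positive cells that were negative for CD31 and CD45 were sorted, a gate aimed at descendants of cells with an active Krt8 promoter.

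A cell copies its genome in S phase. In G1 the MCM2 to MCM7 ring is loaded onto origins with the help of CDC6, and geminin (Gmnn) blocks new loading once replication has begun. CDC45 and the GINS complex switch the ring on as a helicase, polymerase alpha primes the new strands, and PCNA, loaded by replication factor C, holds the polymerases on DNA. Ribonucleotide reductase (Rrm1, Rrm2) and thymidylate synthase (Tyms) supply nucleotides, and histone chaperones repackage the copied DNA. Many of these genes are known targets of the E2F transcription factors, which are released when cyclin-dependent kinases inactivate the retinoblastoma protein.

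The library of mouse 1 held 6175 barcodes and that of mouse 2 held 7538, with 63140346 and 61529883 unique molecular identifiers (UMIs, each standing for 1 captured transcript). The deposited annotation placed 3829 and 5330 of these cells in 18 clusters, at a median of 15014 and 9470 UMIs per cell. The libraries shared 20 barcodes, 9 of them annotated in both. Levels are given as CPM: UMIs were summed over the cells of a mouse and class and scaled to a total of 1000000, and 95% intervals cover counting error only. All 31 genes had at least 10 UMIs in each mouse.

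Promoter sequences are shown first because the genes were chosen for a shared function, and the letters before their start sites are a property that the choice did not use. RefSeq windows on GRCm38.p6, from 250 bases before to 50 bases after the start of transcription, were matched for 23 of the 31 genes. Dscc1, Exo1, Gins2, Gmnn, Mcm4, Rfc2, Tipin and Usp1 had no entry, and Mcm7 and Uhrf1 had 2 windows each. An E2F-type motif, spelled as TTTCCCGC, TTTCGCGC, TTTGCCGC or TTTGGCGC and searched on both strands, was present in 11 of the 23 (47.8%), against 2.60% of the 27025 genes with a window. The 11 were Cdc6, Cdca7, Clspn, Dtl, Hells, Mcm3, Mcm5, Mcm6, Mcm7, Pola1 and Uhrf1. The motif CCAAT, on either strand, was in 17 of 23 windows (73.9%), against 41.1% of all genes. A match describes letters and is not evidence of binding, and overlapping matches were counted once per gene.

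The windows of 4 genes show the range. Capitals mark E2F-type matches, and each sequence runs 5′ to 3′ on the strand of its gene. Clspn had 1 match just after its start, Mcm5 and Mcm6 each had matches on opposite strands that overlap, with a separate match nearer the start in Mcm6, and Nasp had none.
Clspn, chr4:126556730-126557029, plus strand: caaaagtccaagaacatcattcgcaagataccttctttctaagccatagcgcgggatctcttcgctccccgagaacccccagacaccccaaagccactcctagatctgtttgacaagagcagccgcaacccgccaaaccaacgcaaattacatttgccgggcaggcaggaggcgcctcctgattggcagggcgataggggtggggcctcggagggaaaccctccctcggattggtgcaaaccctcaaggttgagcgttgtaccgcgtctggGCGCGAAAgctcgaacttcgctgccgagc
Mcm5, chr8:75109259-75109558, plus strand: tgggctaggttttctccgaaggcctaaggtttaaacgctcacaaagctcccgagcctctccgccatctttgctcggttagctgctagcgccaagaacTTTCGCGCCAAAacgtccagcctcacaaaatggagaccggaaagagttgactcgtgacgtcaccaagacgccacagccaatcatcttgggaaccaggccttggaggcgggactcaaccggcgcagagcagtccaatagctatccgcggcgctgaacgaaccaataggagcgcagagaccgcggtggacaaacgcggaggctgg
Mcm6, chr1:128359656-128359955, minus strand: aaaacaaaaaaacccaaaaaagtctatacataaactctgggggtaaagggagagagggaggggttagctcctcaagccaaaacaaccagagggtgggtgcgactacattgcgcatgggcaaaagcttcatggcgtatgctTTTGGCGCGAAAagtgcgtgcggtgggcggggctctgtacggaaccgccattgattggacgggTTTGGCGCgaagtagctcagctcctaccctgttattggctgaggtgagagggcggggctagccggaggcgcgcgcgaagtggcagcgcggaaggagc
Nasp, chr4:116627902-116628201, minus strand: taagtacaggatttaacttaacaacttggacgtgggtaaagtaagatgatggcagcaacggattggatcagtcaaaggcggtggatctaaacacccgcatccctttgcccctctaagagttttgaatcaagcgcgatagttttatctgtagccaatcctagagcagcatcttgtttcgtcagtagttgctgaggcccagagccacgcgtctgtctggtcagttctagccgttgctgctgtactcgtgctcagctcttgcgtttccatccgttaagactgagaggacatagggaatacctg

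Cluster 16 held the highest summed level of the 31 genes in both mice. The study reported high basal signature scores for this cluster and proposes that it holds basal-like tumor cells. The sum was 3166 CPM in cluster 16 of mouse 1 and 2195 CPM in cluster 16 of mouse 2, against 424 and 383 CPM in the other annotated cells of the same mice. The fold was 7.46 in mouse 1 and 5.73 in mouse 2. Cluster 16 was small, with 34 and 129 cells, and deep, with a median of 33079 and 26972 UMIs per cell. Because the annotation built its clusters out of this same expression table, the level of cluster 16 is a description and was not tested.

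The other clusters lay lower, with means between 275 and 679 CPM. As means of the mice, cluster 16 had 2681 ± 686 CPM, cluster 8 had 679 ± 249 CPM and cluster 4 had 676 ± 60 CPM (SD, n = 2 each). Clusters 1, 9, 14 and 3 followed between 530 and 457 CPM. Cluster 6, which the study describes as lumino-basal, had 409 ± 18 CPM, and cluster 13, which it describes as luminal, had 280 ± 11 CPM (SD, n = 2). Cluster 0, the largest, had 303 ± 38 CPM, and the lowest mean was 275 CPM in cluster 7. Cluster 8 differed most between the mice outside cluster 16, with 855 CPM in mouse 1 and 503 CPM in mouse 2. Clusters 8 and 4, and clusters 1 and 9, differed by less than the SD between mice, whereas clusters 4 and 1, and clusters 3 and 6, differed by more.

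**Figure D1:**
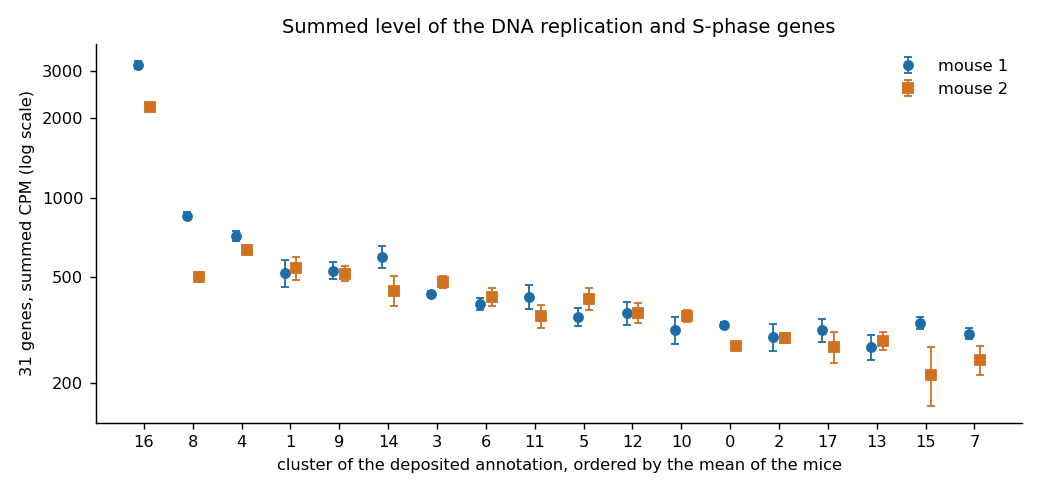
Summed level of the 31 genes (CPM, log scale) in each cluster of mouse 1 (circles) and mouse 2 (squares), with 95% Poisson intervals for counting error. Cluster 16, at 3166 and 2195 CPM, stands above all 17 other clusters, which lie between 214 and 855 CPM.

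In all, 30 of the 31 genes were at least 2-fold higher in cluster 16 than in the other cells in both mice, and 22 were at least 5-fold higher. Over 14692 genes with at least 10 UMIs in each mouse, 6.11% passed the 2-fold limit and 1.95% passed the 5-fold limit. Cluster 16 ranked first of the 18 clusters in both mice for 29 genes, the exceptions being Ung and Slbp. The share of all genes that ranked first there was not counted, so this rank describes the 31 genes only. The geometric mean fold of the mice had a median of 9.38 over the 31 genes and exceeded 10 for 13 of them.

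Among the 8 helicase loading genes the fold ran between 6.07 and 27.3, with a median of 9.48, and all 8 exceeded 5. Cdc6, the loader that places the MCM ring on origins, had 47.8 and 16.5 CPM in cluster 16, against 0.956 and 1.11 CPM in the other cells, in mouse 1 and mouse 2. Outside cluster 16 its highest level was 5.56 CPM, in cluster 8 of mouse 1. Mcm5 had 102 and 71.4 CPM in cluster 16, against 3.89 and 4.86 CPM in the other cells. Mcm6, another subunit of the same ring, had 162 and 102 CPM in cluster 16, against 19.0 and 19.2 CPM in the other cells, a geometric mean fold of 6.73. Subunits of 1 complex thus differed in how far they were restricted, from 19.6-fold for Mcm5 through 13.04 for Mcm3, 9.08 for Mcm2 and 7.80 for Mcm7 down to 6.07 for Mcm4. Gmnn, which encodes the inhibitor of loading, was 9.87-fold higher, with 119 and 81.1 CPM in cluster 16, against 9.61 and 10.3 CPM in the other cells.

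The 8 fork genes had a median fold of 7.85, and 5 of the 8 exceeded 5. Clspn encodes claspin, which relays the replication checkpoint from stalled forks to the kinase CHK1. It had 85.8 and 63.2 CPM in cluster 16, against 1.81 and 1.86 CPM in the other cells, a fold of 40.2. Pcna, the sliding clamp, had 319 and 237 CPM in cluster 16, against 70.9 and 57.4 CPM in the other cells, a fold of 4.30. Both were first in cluster 16, but Pcna was also counted in every other cluster. Dscc1, part of an alternative clamp loader, was 17.1-fold higher and Cdc45 was 16.6-fold higher. Tipin, a fork protection factor, was 8.08-fold higher, Pola1 was 7.63-fold higher, Gins2 was 4.90-fold higher and Rfc2 was 3.64-fold higher.

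The 3 nucleotide supply genes had folds of 19.2 for Rrm2, 11.0 for Rrm1 and 9.91 for Tyms. Rrm2, the regulated subunit of ribonucleotide reductase, had 203 and 145 CPM in cluster 16, against 8.40 and 9.53 CPM in the other cells. For all 3 genes cluster 8 was next in order, with a mean of 46.8 CPM for Rrm2, 36.5 CPM for Rrm1 and 43.8 CPM for Tyms.

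Among the 6 chromatin genes, Uhrf1, which brings maintenance DNA methylation to copied DNA, was 17.8-fold higher, with 108 and 78.9 CPM in cluster 16, against 5.98 and 4.52 CPM in the other cells. Chaf1b, a subunit of the chromatin assembly factor, was 9.38-fold higher, Hells, a chromatin remodeler, was 8.75-fold higher and Cdca7, its activator, was 4.80-fold higher. Nasp, a histone chaperone, had 344 and 244 CPM in cluster 16, against 100.01 and 74.4 CPM in the other cells, a fold of 3.36. Slbp, which binds the stem-loop of histone mRNAs, had 147 and 86.0 CPM in cluster 16, against 42.8 and 39.5 CPM in the other cells, a fold of 2.74. In cluster 1 Slbp reached 83.0 and 98.9 CPM, above cluster 16 in mouse 2, at a median of only 1258 and 1009 UMIs per cell. Cluster 9 also exceeded cluster 16 in mouse 2, with 77.0 and 91.6 CPM of Slbp in the mice, at a median of 7974.5 and 6343 UMIs per cell.

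The 6 repair and control genes had the highest median fold, 12.5, and the widest range. Exo1, an exonuclease of mismatch repair and end resection, had 35.2 and 14.8 CPM in cluster 16, against 0.556 and 0.525 CPM in the other cells, a fold of 42.3. E2f8, an E2F family repressor, was 37.8-fold higher, Blm, a helicase that resolves recombination intermediates, 13.02-fold, Dtl, which directs the licensing factor CDT1 to degradation, 11.9-fold, and Usp1, a deubiquitinase of PCNA, 5.19-fold. Ung, which removes uracil from DNA, had 20.8 CPM in cluster 16 of mouse 1, against 3.06 CPM in its other cells, and 6.04 CPM in cluster 16 of mouse 2, against 4.16 CPM in its other cells. Its fold was 6.79 in mouse 1 and 1.45 in mouse 2, on 23 and 22 UMIs in the cluster. In mouse 2, clusters 8, 14, 1 and 9 held more Ung than cluster 16, at 12.3, 11.9, 11.0 and 10.8 CPM.

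**Figure D2:**
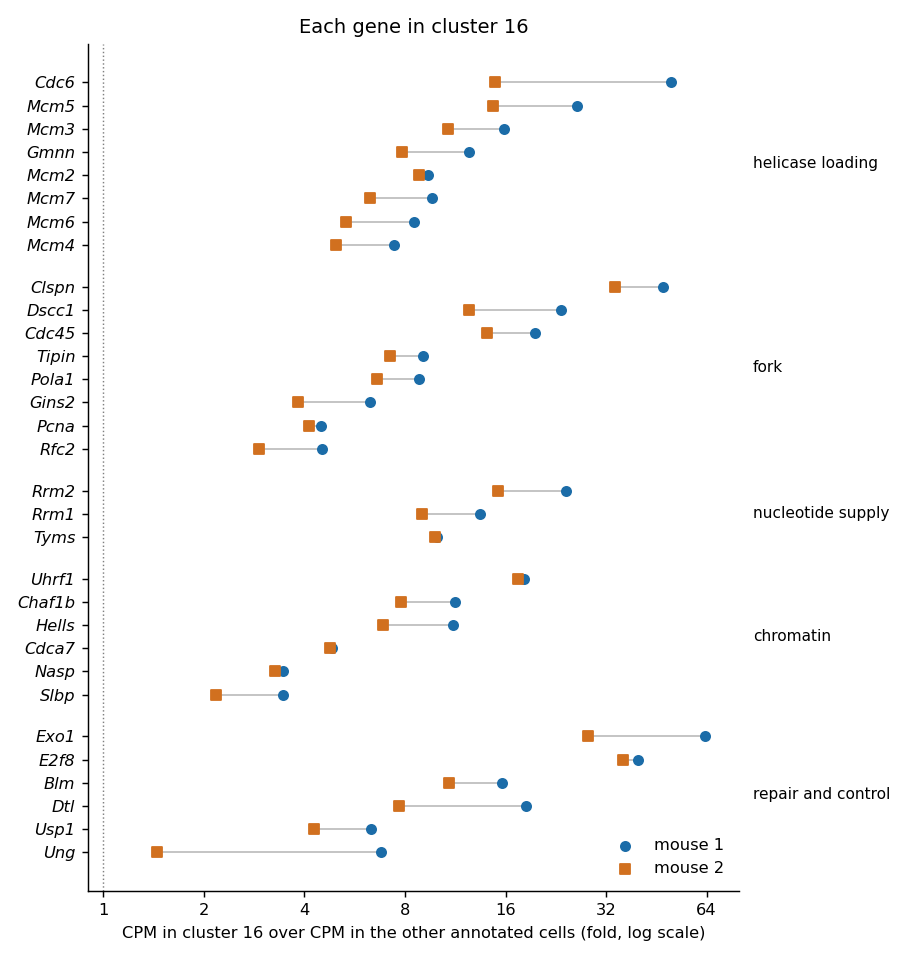
Fold of each gene's CPM in cluster 16 over the other annotated cells (log scale), in mouse 1 (circles) and mouse 2 (squares), grouped by role. Exo1, Clspn and E2f8 have the largest mean folds (42.3, 40.2 and 37.8), and Slbp, Nasp, Rfc2, Pcna and Cdca7 lie below 5 in both mice, while Ung differs most between mice, at 6.79 and 1.45.

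A few genes carried much of the sum outside cluster 16. Nasp, Pcna and Slbp, the 3 with the most UMIs, held 25.6% and 25.8% of the UMIs of the 31 genes in cluster 16 of the mice, against 50.4% and 44.7% in the other cells. Without these 3 genes, the summed fold was 11.2 in mouse 1 and 7.69 in mouse 2. The 11 genes with an E2F-type motif had a median fold of 11.9 (4.80 to 40.2), and the 12 genes without it had a median of 9.64 (2.74 to 37.8), so the ranges overlapped. Cluster 16 of mouse 1 exceeded that of mouse 2 for 30 of the 31 genes, all but Blm, with a median ratio of 1.43, while in the other cells mouse 1 was higher for 17 genes, with a median ratio of 1.01. The summed mitosis genes had the other order in cluster 16, with 6743 CPM in mouse 1 and 8093 CPM in mouse 2. The share of all genes that were higher in cluster 16 of mouse 1 was not counted. With 1 library per mouse these differences were not tested.

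To find cells with an S-phase profile outside cluster 16, each cell was thinned to 5000 UMIs and the detected genes of the 31 were counted. Cells of cluster 16 had a median of 11 genes in mouse 1 and 8 in mouse 2, and cells outside it had a median of 1 in each mouse. In 21.2% and 24.7% of the cells outside cluster 16, none of the 31 was detected. A cell with 8 or more was called S-phase-high. This is a range of a count and not a cell type: 19 cells sat at the limit and 24 cells lay 1 gene below it.

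Outside cluster 16, 46 of 3022 cells of mouse 1 (1.52%, exact 95% interval 1.12 to 2.03%) and 37 of 3687 cells of mouse 2 (1.00%, 0.708 to 1.38%) were S-phase-high. In cluster 16 itself the shares were 24 of 34 cells (70.6%) and 68 of 126 cells (54.0%). A further 2287 cells outside cluster 16 had under 5000 UMIs and were left out. Without thinning, the share with 8 or more genes was 10.5% in mouse 1 and 6.70% in mouse 2. A second random thinning gave 48 and 40 cells, of which 63 were the same cells.

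The S-phase-high cells were not spread evenly. Cluster 8 held 19 of 165 cells (11.5%, 7.08 to 17.4%) in mouse 1 and 4 of 218 cells (1.83%, 0.502 to 4.63%) in mouse 2. Cluster 4 held 8 of 116 cells (6.90%, 3.02 to 13.1%) and 23 of 399 cells (5.76%, 3.69 to 8.52%). With cluster 3 added, 61 of the 83 cells (73.5%) lay in these 3 clusters, which held 23.9% and 20.9% of the scored cells. This grouping was chosen after the values were seen, and cluster 3 by itself was at 1.14% and 1.30%. Cluster 1 held 1 of 13 cells (7.69%) and 1 of 15 cells (6.67%). Cluster 14 held 3 of 30 cells (10%) and 1 of 26 cells (3.85%). Too shallow to be scored were 332 and 486 cells of cluster 1 and 53 and 129 cells of cluster 14. Cluster 0 held 2 of 934 cells and 0 of 1165 cells, which allows a share of up to 0.316% in mouse 2 by the exact interval. Cluster 6 and cluster 13 each held 1 such cell per mouse, and 4 of 17 clusters held none.

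**Figure D3:**
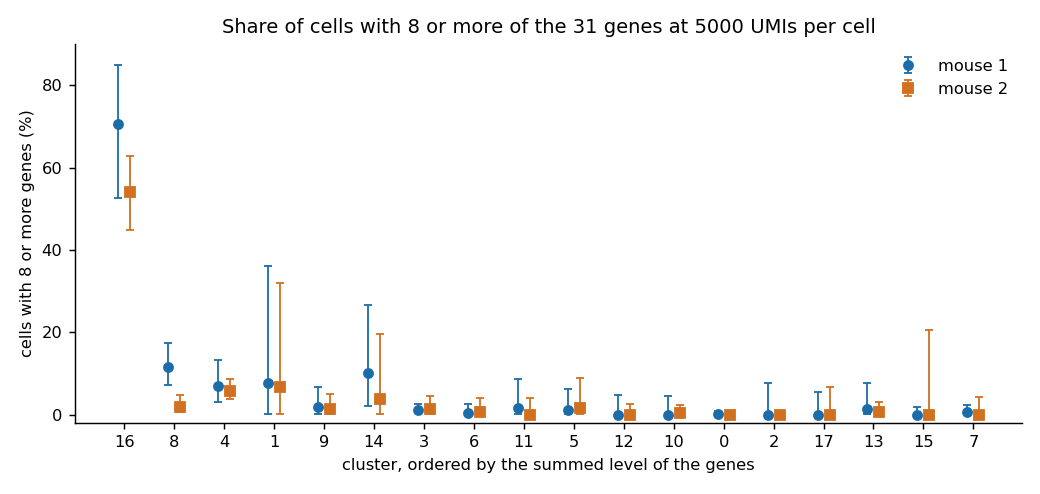
Percentage of cells with 8 or more of the 31 genes detected at 5000 UMIs, by cluster, in mouse 1 (circles) and mouse 2 (squares) with exact 95% intervals. Cluster 16 is at 70.6% and 54.0%, and cluster 8 is at 11.5% in mouse 1 and 1.83% in mouse 2.

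The cells were chosen for these genes, so leaving them out had to lower the summed level, and only its size is described. Without its S-phase-high cells, cluster 8 had 502 CPM in mouse 1 and 386 CPM in mouse 2, against 853 and 502 CPM with them, over cells of at least 5000 UMIs. Cluster 4 without them had 613 and 508 CPM, against 709 and 628 CPM with them. Both clusters without them were still above cluster 0 with all of its cells, which had 330 and 275 CPM.

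The 31 genes summed to 2904 and 2577 CPM in S-phase-high cells outside cluster 16, against 373 and 346 CPM in the other cells outside it. The class was defined by these genes, so their level follows from the choice and was not tested. In all cells of cluster 16 at the same depth limit the sum was 3166 and 2199 CPM. Every 1 of the 31 was higher in both mice, by 0.89 on the log2 scale for Slbp up to 6.00 for Exo1, with a median of 3.67. Mcm3 had 151 and 95.8 CPM in S-phase-high cells, against 5.29 and 3.81 CPM in other cells. Ung, which was hardly raised in cluster 16 of mouse 2, had 28.9 and 41.6 CPM in S-phase-high cells, against 2.58 and 3.48 CPM in other cells.

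Genes that were not used to define the class were tested on UMIs summed per mouse (edgeR quasi-likelihood with the mouse as a block, Benjamini-Hochberg adjusted p under 0.05). Of 13776 such genes, 2216 (16.1%) passed, 1029 higher (7.47%) and 1187 lower (8.62%), and the median log2 fold change was -0.11. DESeq2 called 980, 597 higher and 383 lower. Fits with 1 sum left out also had no mouse block, and with no block on all sums 465 genes passed. Leaving out the S-phase-high cells of mouse 1 or mouse 2 gave 77 and 146 calls, and leaving out the other cells of mouse 1 or mouse 2 gave 203 and 199. The S-phase-high cells were deeper than the others, with a median of 23055 and 19822 UMIs, against 17582 and 12057 UMIs, and had a lower mitochondrial share, 5.42% and 4.48%, against 6.48% and 6.02%. The part of depth or of undetected doublets in these calls was not tested.

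Other replication genes rose with the 31. In a list of 59, 56 were higher and 0 lower, with a median log2 fold change of 3.16, and the list summed to 2482 and 2247 CPM in S-phase-high cells, against 391 and 407 CPM in other cells. Rad51ap1, a homologous recombination gene, had 36.1 and 21.9 CPM in S-phase-high cells, against 0.324 and 0.512 CPM in other cells (log2 fold change 6.11 ± 0.61, adjusted p = 4.1e-21). Ticrr, an initiation factor, rose by 5.30, Mybl2, a cell-cycle transcription factor, by 4.77 and Brca1, a recombination repair gene, by 4.74. Pclaf, which encodes a PCNA-binding factor, had the largest rise among genes of at least 50 CPM, with 169 and 126 CPM in S-phase-high cells, against 3.70 and 4.53 CPM in other cells (5.16 ± 0.25, adjusted p = 1.1e-87).

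Mitosis genes rose as well. Of 55, 48 were higher and 0 lower, with a median of 3.21, and the list summed to 3687 and 4121 CPM in S-phase-high cells, 1069 and 1175 CPM in other cells, and 6743 and 8083 CPM in cluster 16 at the same depth limit. Top2a, the topoisomerase that untangles sister chromatids, had 183 and 142 CPM in S-phase-high cells, against 5.29 and 4.88 CPM in other cells. Ccna2, the S and G2 cyclin, rose by 5.07, Kif11, a spindle motor, by 5.09, Aurkb by 5.21, Nuf2 by 5.41, Birc5 by 4.25, Cdk1 by 4.05 and Tpx2 by 3.99. Of the 83 cells, 13 also had 18 or more of the 55 mitosis genes, a limit taken from cluster 16 after the values were seen, and in cluster 16 this held for 14 of the 24 and 41 of the 68 cells that were high in the 31 genes. Without all cells that passed the mitosis limit, 41 of the 55 mitosis genes were still higher.

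Histone genes and growth genes followed. Of 17 histone genes, 14 were higher and 0 lower (median 1.33). Hist1h2ap, a replication-dependent H2A gene, had 345 and 398 CPM in S-phase-high cells, against 10.1 and 28.7 CPM in other cells, and Hist1h3c rose by 4.83. Some of the histone genes are near-identical copies, and the counts of these can be split or lost between copies. Of 16 growth and nucleolar genes, 14 were higher and 0 lower (median 0.87). Ranbp1, a cofactor of nuclear transport, had 616 and 514 CPM in S-phase-high cells, against 220 and 202 CPM in other cells, and Ppat, the first enzyme of purine synthesis, rose by 1.37.

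The G1 control genes split. Of 19, 3 were higher and 5 lower, with a median of -0.13. The 3 were Cdk2, Cdk4 and Ccnd1, and the 5 were Cdkn1c, Rb1, Ccng2, Cdkn1a and Myc. Cdk4, the cyclin D kinase, had 221 and 182 CPM in S-phase-high cells, against 92.8 and 98.4 CPM in other cells (1.08 ± 0.20, adjusted p = 2.4e-06), and Cdk2 rose by 1.17. Rb1, which encodes the retinoblastoma protein, had 17.2 and 31.2 CPM in S-phase-high cells, against 38.6 and 64.5 CPM in other cells (log2 fold change -1.10 ± 0.28, adjusted p = 0.0013). Cdkn1c, an inhibitor of cyclin-dependent kinases, had 15.4 and 0 CPM in S-phase-high cells, against 92.4 and 14.2 CPM in other cells (log2 fold change -2.84 ± 0.38), and without the other cells of mouse 1 its log2 fold change was -0.76 with no call. With other cells weighted to the cluster make-up of the S-phase-high cells, 4 of 18 G1 genes were higher and 2 lower, and Rb1 was at -0.04 (adjusted p = 0.96). With DESeq2 the adjusted p of Rb1 was 0.069, and Rb1 did not pass with any of the 4 sums left out.

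Luminal keratins and junction genes were lower. All 8 pan-luminal genes fell, with a median of -0.91, and summed to 12925 and 11448 CPM in S-phase-high cells, against 19826 and 23571 CPM in other cells. Krt19 fell by 1.86, Krt7 fell by 1.43, Cldn4 fell by 1.14 and Epcam fell by 0.91 on the log2 scale. A median of 6 of the 8 was still detected per S-phase-high cell, against 7 per other cell. Of 10 luminal progenitor genes, 3 were lower (Kit, Sox10 and Ltf) and 1 higher (Lcn2, adjusted p = 0.0498), and of 9 mature luminal genes tested, 2 were lower: Ly6a fell by 2.58 and Areg fell by 0.49. Lcn2, Ltf and Areg turned direction, with no call, in a fit with 1 sum left out, at -0.042 for Lcn2 without S-phase-high cells of mouse 1, 0.025 for Ltf without those of mouse 2, and 0.14 for Areg without other cells of mouse 1.

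Over all cells outside cluster 16, the basal genes and the basal signature score of the annotation moved in opposite directions. Of 10 basal genes, 6 were lower and 0 higher, with a median of -1.80, or -1.44 with Krt5 and Oxtr, both at 0 UMIs in S-phase-high cells, set at their bounds. The 6 were Krt5, Krt14, Krt17, Tagln, Mylk and Acta2. Krt14, a basal keratin, had 2.71 and 0 CPM in S-phase-high cells, against 55.7 and 95.7 CPM in other cells. Krt5 was at least 5.01-fold lower, taking 3 counts over both mice as the floor, a bound that covers counting error only. These falls depended on the class limit: the log2 fold change of Krt14, -5.57, was -2.12 with 1 gene fewer required and -0.68 with thinning to 2000 UMIs. At 2000 UMIs 3 of the 10 basal genes were lower and Krt5 did not pass, and with DESeq2 2 of 9 were lower. The list summed to 210 and 4.92 CPM in S-phase-high cells, against 360 and 249 CPM in other cells, with a median of 0 genes detected per cell in both classes. Within cluster 4 it summed to 9.14 and 0 CPM in S-phase-high cells, against 36.6 and 7.33 CPM in other cells. Within cluster 8 it summed to 3.06 and 6.24 CPM, against 2.99 and 9.15 CPM. With other cells weighted to the cluster make-up, 4 of the 10 genes could be tested, with a median of -0.14. The mean basal score was 0.637 and 0.526 in S-phase-high cells, 0.207 and 0.128 in other cells, and 0.976 and 0.963 in cluster 16, where the 10 basal genes summed to 53.3 and 72.2 CPM. The luminal progenitor score was 0.215 and 0.170 in S-phase-high cells, against 0.445 and 0.408 in other cells.

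The 10 largest falls among genes of at least 50 CPM were those of Krt14, Smr3a, Mgp, Ptgs2, Amtn, Scgb1b27, Spp1, Saa1, Cdkn1c and Ecrg4. Spp1, which encodes osteopontin, had 199 and 68.1 CPM in S-phase-high cells, against 1028 and 1258 CPM in other cells (log2 fold change -3.20 ± 0.19). Ptgs2, the inducible cyclooxygenase, had 15.4 and 0 CPM in S-phase-high cells, against 176 and 79.0 CPM in other cells. Scgb1b27 had 4.52 and 21.9 CPM in S-phase-high cells, against 6.77 and 356 CPM in other cells, so its fall rests on mouse 2, and without the other cells of mouse 2 its log2 fold change was 1.00 with no call. The sizes of these falls depended on the class limit and the cluster make-up. Smr3a, at -4.73, was at -0.91 with 1 gene fewer required and at -0.81 with no call at 2000 UMIs. With other cells weighted to the cluster make-up, Spp1 was at -1.44, Ptgs2 was at -1.84 and Ecrg4 was at -0.38 with no call (adjusted p = 0.58), against -2.83 unweighted. Of 10 hypoxia genes, 5 were lower and 1 higher: Ndrg1 fell by 2.27, Adm fell by 1.36, Car9 fell by 1.21, Vegfa fell by 1.08 and Slc2a1 fell by 1.04, while the glycolysis gene Pgk1 rose by 0.50. Of 12 immediate early genes, 4 were lower, with Fosb at -0.88, and of 10 interferon genes, 3 were lower, with Ifit1 at -3.11.

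The cluster make-up of the classes differed, and some of these calls depended on it. When the other cells were weighted to the cluster make-up of the S-phase-high cells, 961 of 7674 genes passed, 600 higher and 361 lower. All 46 other replication genes that could be tested were higher, as were 40 of 46 mitosis genes, 11 of 15 histone genes and 15 of 16 growth genes, and all 8 pan-luminal genes were lower. Of the basal genes, 4 could be tested, with 1 higher and 1 lower (Krt14), and the hypoxia list had 2 of 9 lower, the immediate early list 2 higher and 1 lower of 12, and the interferon list 0 of 7.

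Most markers of other cell types were low in the S-phase-high cells. The 7 fibroblast genes summed to 3.58 and 0 CPM in S-phase-high cells, against 90.2 and 97.1 CPM in other cells, with 5 and 7 of the 7 at 0. Col3a1 was at least 14.2-fold lower with the same floor of 3 counts, which covers counting error only. These falls held for the chosen class limit and not for a looser one. With 1 gene fewer required, Col3a1 was at 0.16 and Col1a2 at 0.72 on the log2 scale. At 2000 UMIs they were at 0.11 and 0.60. None of these was called, and 1 of the 7 genes was lower in each case. The other cells of clusters 4 and 8 also held few fibroblast UMIs, at 1.11 and 1.83 CPM in cluster 4 and 0.498 and 1.62 CPM in cluster 8. With other cells weighted to the cluster make-up, 0 of the 7 genes could be tested. The 5 endothelial genes summed to 0.895 and 60.3 CPM in S-phase-high cells, against 2.82 and 12.4 CPM in other cells. Kdr had 0 and 27.7 CPM and Cdh5 0 and 19.6 CPM in S-phase-high cells, and both were called higher although mouse 1 held none; 1 of the 37 cells of mouse 2 carried 2 or more endothelial genes. Without the S-phase-high cells of mouse 2 the fitted log2 fold changes were -8.04 for Kdr and -8.53 for Cdh5, with no call. The macrophage list summed to 9.85 and 8.61 CPM in S-phase-high cells, against 20.9 and 22.7 CPM in other cells, and 1 of 4 genes tested was lower (Cd68). Ptprc was at 0 in S-phase-high cells of both mice, and also in the other cells of mouse 1 and in cluster 16 of both mice. Of the pericyte genes tested (Cspg4 and Pdgfrb) none passed, and the T and NK cell gene Trac did not pass. B cell genes were at 0 in S-phase-high cells, against only 0.255 and 0.243 CPM in other cells. The part of cells of other types in these results was not tested. Without cells that carried 2 or more endothelial genes, 2246 genes passed.

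**Figure D4:**
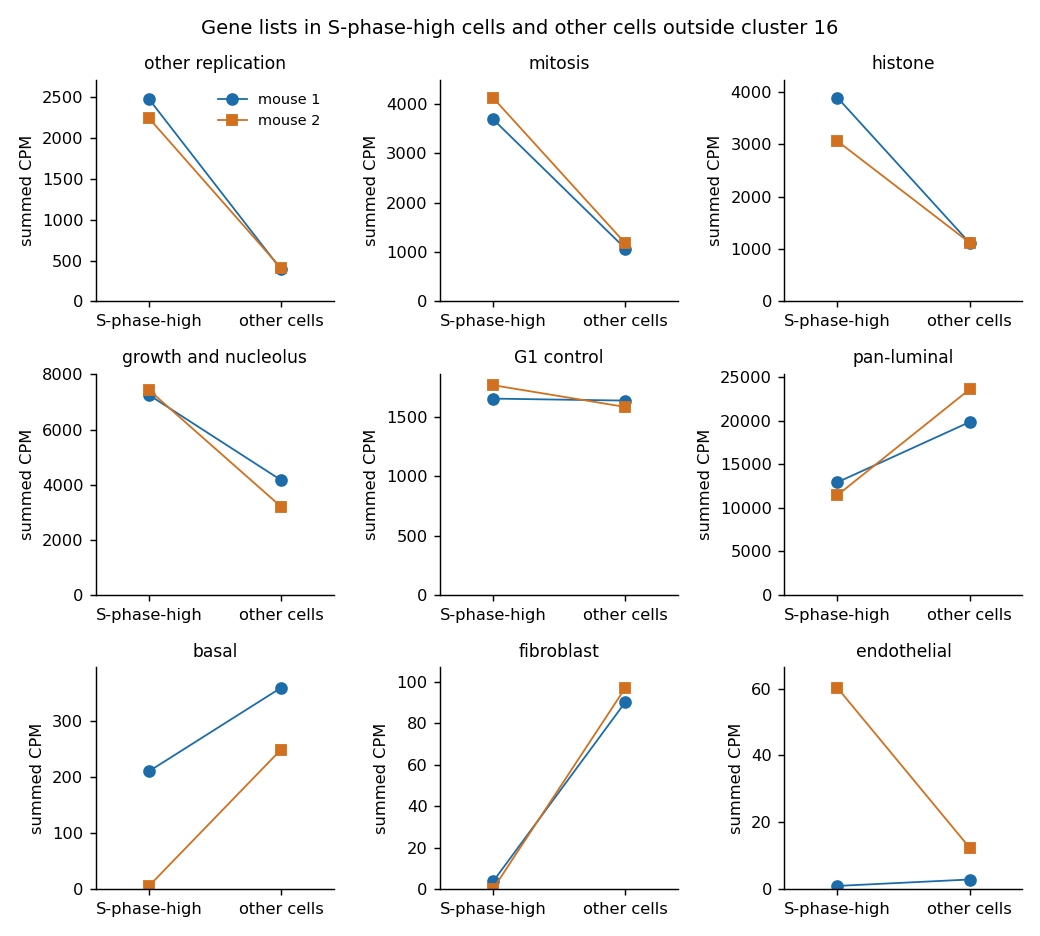
Summed CPM of 9 gene lists in S-phase-high cells (left of each panel) and other cells outside cluster 16 (right), with a line per mouse. Other replication, mitosis, histone and growth genes are higher on the left in both mice, pan-luminal, basal and fibroblast genes are lower at this class limit, and the endothelial list is raised in mouse 2 only.

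The study compared cluster 6 with cluster 13, and the 31 genes were read from that comparison. The annotation built both clusters out of the same table, so the test asks only whether both mice show a difference. Of 31 genes, 15 passed the low-count filter; the other 16, among them Clspn, Cdc6, Exo1, Mcm5 and Rrm2, had too few UMIs in both clusters. Of the 15, 2 were higher and 2 lower in cluster 6, against 2782 of 9794 genes overall (28.4%, with 16.3% higher and 12.1% lower). The share among the 15 was close to that of all genes, and their median log2 fold change was 0.13, against 0.01 over all genes.

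The genes higher in cluster 6 were Nasp and Pcna, and those lower were Gins2 and Mcm6. Nasp had 109 and 86.5 CPM in cluster 6, against 44.7 and 38.2 CPM in cluster 13 (log2 fold change 1.23 ± 0.28, edgeR adjusted p = 0.00079). Pcna had 90.8 and 84.7 CPM in cluster 6, against 41.3 and 45.1 CPM in cluster 13 (1.02 ± 0.28, edgeR adjusted p = 0.0058). Gins2, a subunit of the GINS complex, had 4.98 and 6.61 CPM in cluster 6, against 19.8 and 13.3 CPM in cluster 13 (-1.52 ± 0.47, edgeR adjusted p = 0.012). Mcm6 had 14.4 and 15.02 CPM in cluster 6, against 31.8 and 28.4 CPM in cluster 13 (-1.03 ± 0.36, edgeR adjusted p = 0.030). The clusters did not overlap for any of these 4 genes, nor for Pola1, Tyms, Slbp and Rfc2, which did not pass. The share of all genes without overlap was not counted, so this adds nothing to the calls. Genes of the replication machinery stood on both sides, and Mcm4 and Mcm7, which form a ring with Mcm6, had log2 fold changes of -0.06 and 0.44 and did not pass.

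Pola1 had 5.86 and 5.41 CPM in cluster 6, against 1.72 and 1.72 CPM in cluster 13, without passing (edgeR adjusted p = 0.087). Slbp had 48.1 and 47.5 CPM in cluster 6, against 43.9 and 30.9 CPM in cluster 13 (adjusted p = 0.41). No call among the 31 genes was kept by DESeq2, which called 0 with 2 at an unadjusted p under 0.05, or when a sum was left out, which gave 0 in each of 4 fits by edgeR with 2 to 6 at an unadjusted p under 0.05. Those 4 fits also had no mouse block. S-phase-high cells were 1 of 219 and 1 of 135 in cluster 6, against 1 of 70 and 1 of 175 in cluster 13.

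**Figure D5:**
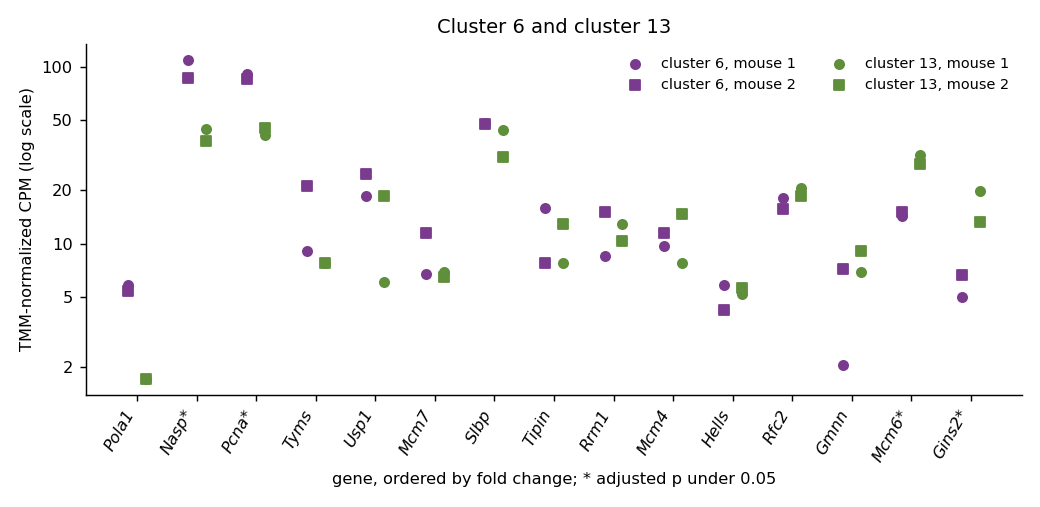
Level (TMM-normalized CPM, log scale) of the 15 genes that passed the low-count filter in cluster 6 (left of each pair) and cluster 13 (right), circles for mouse 1 and squares for mouse 2, ordered by fold change. Nasp and Pcna are higher and Mcm6 and Gins2 lower in cluster 6 in both mice, and stars mark an adjusted p under 0.05.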

How the data were processed

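Single-cell RNA-seq (Chromium Single Cell 3′ v3.1) was analysed for 2 tumors, 1 library per mouse. The matrices deposited by the authors hold raw UMI counts per gene and barcode, made with Cell Ranger 6.0.1 on mm10 per the submitters' processing notes. The annotation deposited by the authors gives clusters made with Seurat (4.0.3 in those notes) after removal of doublets with scDblFinder, of cells with few UMIs or a high mitochondrial share, and of immune clusters. It also gives the mitochondrial fraction of UMIs and, as deposited by the authors, a score from 0 to 1 for luminal progenitor, mature luminal and basal signatures. Barcodes without annotation entered no comparison.

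Levels are CPM of UMIs summed per mouse and cluster or class, since cells of a mouse are not replicates. Beside fold changes they are TMM-normalized CPM. Cells were thinned without replacement to 5000 UMIs (seed 1), and S-phase-high cells had at least as many of the 31 genes as the lower of the mouse medians of cluster 16 (8). Sums were tested with edgeR 4.0.16 (limma 3.58.1, R 4.3.3; filterByExpr, TMM, quasi-likelihood, mouse as a block, Benjamini-Hochberg at 0.05) with 1 residual degree of freedom; each standard error was taken as |log2 fold change|/√F. DESeq2 1.42.0, no filter, no block, total UMI scaling, each sum left out (these fits without the block), and other class limits were alternatives. Pairing comes from the animal; differences between mice correlated across genes at r = 0.315 for the S-phase-high comparison and 0.139 for clusters 6 and 13, where genes are not independent replicates. Each test was tried on simulated counts with 100 genes changed 2-fold and 100 changed 4-fold. For the S-phase-high comparison edgeR called 23 and 73 of these, and DESeq2 called 9 and 55. For clusters 6 and 13 edgeR called 26 and 94, and DESeq2 called 3 and 62. Most 2-fold changes were thus missed, so a gene that did not pass may still differ.

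The genes, lists and comparisons were chosen with earlier results of these data known. The lists hold textbook genes of each function. Named in the S-phase-high comparison were the 10 largest rises and falls past the threshold, with the same direction in each mouse and 50 CPM or more in the higher class, and up to 4 genes per list (or the 2 with the most UMIs where none passed). Genes most like the sum had at least 20 CPM and were ranked over sums of at least 50 cells. A gene that this rule selects is not reported here.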

Additional observations from a re-analysis of the deposited data

Results flagged for a closer look

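Barcodes without annotation also held UMIs of the 31 genes. These 2346 and 2208 barcodes were used in no comparison, and the summed level was 267 CPM in mouse 1 and 386 CPM in mouse 2. Among those whose mitochondrial share did not exceed that of the highest annotated cell, 35 and 260 barcodes, it was 598 and 601 CPM.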

How the results depend on the processing

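With 2 mice and 1 residual degree of freedom, the counts of called genes depended on the fit more than the directions did. In S-phase-high against other cells, 2216 genes passed, against 980 with DESeq2, 465 with no replicate block, 961 with other cells weighted to the cluster make-up, and 77 to 203 when 1 sum was left out. The fit with no replicate block shared all of its 465 genes with the 2216. Each fit with 1 sum left out, in both comparisons, also had no block. Fewer or more genes required, thinning to 2000 UMIs, no filter, total UMI scaling and leaving out cells high in mitosis genes or with endothelial genes (both chosen after seeing the data) gave 1912 to 2246. In cluster 6 against cluster 13, 2782 genes passed, against 997 with DESeq2, 1996 with no replicate block and 0 to 1387 when 1 sum was left out. The 0 came without cluster 6 of mouse 2, where 3053 genes had an unadjusted p under 0.05 by edgeR, and total UMI scaling moved the median log2 fold change of all genes to 0.11, against 0.01. Of the 31 genes, 4 passed, against 0 with DESeq2, 3 with no replicate block, and 0 to 0 when 1 sum was left out. The share of S-phase-high cells, 1.26% as a mean of the mice, was 1.99% with thinning to 2000 UMIs and 8.61% with no thinning. The fold of cluster 16, 6.60 as a mean of the mice, was 9.44 without the 3 genes with the most UMIs. Directions turned, with no call, for 6 genes when 1 sum was left out, with log2 fold changes of -5.34 to 1.00 for Scgb1b27, -2.45 to 0.025 for Ltf, -0.042 to 0.71 for Lcn2, -1.08 to 0.14 for Areg, -8.04 to 4.89 for Kdr and -8.53 to 5.22 for Cdh5. They also turned with other cells weighted for Ltf (0.19), Areg (0.19) and Tagln (0.80), with 1 gene fewer required for Col3a1 (0.16) and Col1a2 (0.72), at 2000 UMIs for Col3a1 (0.11) and Col1a2 (0.60), and without mitosis-high cells for Kdr (-0.40). The causes were not tested. A gene with few UMIs in 83 cells cannot show a small change.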

Other observations

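Over 33 sums of a cluster and a mouse with at least 50 cells, the genes outside the 31 whose log2(CPM + 1) followed that of the sum most closely were Top2a (Pearson r = 0.91), Ccdc34 (0.86), Ube2c (0.81), Dut (0.81), Mki67 (0.81), Cenpw (0.81), Hist1h2ae (0.81), Smc4 (0.78), Anapc5 (0.78) and Cbx3 (0.77), ranked among 5613 genes of at least 20 CPM. Dut makes the precursor of thymidylate, and Mki67 encodes the proliferation antigen Ki-67. Without cluster 16, over 32 sums, the order was led by Ccdc34 (0.83), Anapc5 (0.78), Mki67 (0.76), Mrps26 (0.74) and Dut (0.73), and Top2a and Ube2c were no longer among the 10. The sums share 2 libraries and differ in depth and cell number, so these values describe likeness only.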
